A study of Mus musculus with 4 samples.

Results

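Adult bone marrow MSCs were examined for 10 genes of mechanical sensing, out of 56980 genes in the deposited count table. The genes were taken by symbol: the channel and polycystin genes Piezo1, Piezo2, Trpv4, Pkd1 and Pkd2, the coactivator genes Yap1 and Wwtr1, and the DNA-binding partners Tead1, Tead2 and Tead3. All 10 symbols were found, each in 1 row. MSCs, the mesenchymal stroma cells that make bone and the blood stem cell niche, came from the femurs of 4 wild-type male C57BL/6J mice of an in-house inbred colony, aged 14 weeks. The marrow was flushed and digested, and from each mouse 100 cells that carried CD51 and PDGFRa but lacked CD45, Ter119, CD31 and Sca1 were sorted into 1 RNA-seq library. The mice carried no transgene and received no treatment, and all 4 libraries form 1 group, so there is no contrast between conditions. The comparisons below are between genes within a mouse and between mice.

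Cells read the stiffness of their surroundings, fluid flow and stretch through ion channels in the membrane and through the pull of the actin skeleton on adhesion sites. PIEZO1 and PIEZO2 open directly under membrane tension, TRPV4 is a calcium channel that responds to swelling and flow, and PKD1 with PKD2 forms the polycystin complex of the primary cilium. YAP and TAZ (encoded by Yap1 and Wwtr1) are held in the cytoplasm when the kinases of the Hippo cascade phosphorylate them, and on stiff substrates they enter the nucleus and bind TEAD factors, which carry them to DNA. In cells of the skeletal lineage, PIEZO1 and the YAP-TEAD pair are known for their part in the response of bone to load. Whether YAP and TAZ are nuclear is set after translation, so that the mRNA levels given here do not measure their activity.

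The libraries held between 22738604 and 43545349 counts on genes, with 16109 to 18907 genes above 0. Levels are given as TPM, in which every library sums to 1000000 and which corrects the count for the length of a gene's merged exons. A gene was taken as expressed at a median TPM above 1 over the 4 mice. The study set this cutoff for ligand and receptor genes of MSCs, and here it is applied to every gene. The sort antigens Pdgfra (median 40.05 TPM) and Itgav (CD51, 15.9 TPM) were above 1 TPM in every mouse, and Ptprc (CD45) and Pecam1 (CD31) had medians of 0.00801 and 0.139 TPM. Ly6a, which encodes Sca1, went against the gate in part of the libraries, with 1, 120, 0 and 144 counts in mice 1 to 4. The niche markers Cxcl12, Kitl and Lepr were high, with medians of 1652, 60.9 and 54.7 TPM, and so were the osteoblast markers Bglap, Ibsp and Alpl, with medians of 108215, 12124 and 733 TPM. The genes below are therefore described for a sort that carried osteoblast RNA besides the niche genes. In a bulk library, fewer cells of a type and less RNA per cell cannot be told apart.

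Of the 10 genes, 9 were expressed by this measure, all but Piezo2, against 44.2% of 21922 protein-coding genes and 22.9% of all 52125 genes with a length. Of the 10 genes, 7 have more than 6000 exonic bases, and 6 of these 7 were expressed, against 59.7% of the 5123 protein-coding genes of that length. Trpv4, Wwtr1 and Tead2 are shorter. The median of the 10 medians was 2.93 TPM, against 0.135 TPM over all protein-coding genes. A level above 1 TPM in every mouse was reached by 5 of the 10, Trpv4, Pkd2, Yap1, Wwtr1 and Tead2, against 30.1% of protein-coding genes. By median, the order was Wwtr1, Trpv4, Pkd2, Tead2, Yap1, Pkd1, Piezo1, Tead3, Tead1 and Piezo2. Within a mouse, most neighbours in this order differed by less than the SD of their difference over the 4 mice. The exceptions were Pkd2 over Tead2 (0.94 ± 0.92 in log2(TPM + 1), higher in 3 of 4 mice), Yap1 over Pkd1 (1.09 ± 0.997, 4 of 4) and Tead1 over Piezo2 (1.21 ± 0.71, 4 of 4). The order also depends on the gene length used. With the longest annotated transcript, Pkd2 (median 17.2 TPM) came before Trpv4 (11.6 TPM) and Yap1 (5.49 TPM) before Tead2 (4.81 TPM). Tead3 (2.01 TPM) then came before Pkd1 (1.80 TPM) and Piezo1 (1.33 TPM).

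**Figure D1:**
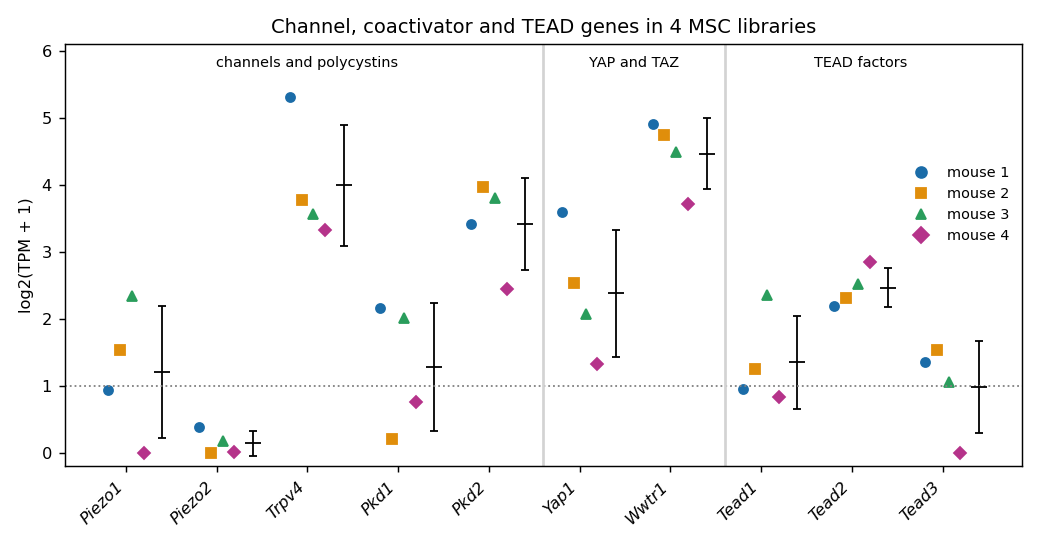
Levels of the 10 genes in log2(TPM + 1) (vertical axis), with a symbol for each mouse and, at the right of each gene, the mean with its SD over the 4 mice; the dotted line marks 1 TPM. Wwtr1, Trpv4 and Pkd2 have the highest medians (23.6, 11.7 and 11.3 TPM), Piezo2 lies near 0 in all 4 mice, and Piezo1 and Tead3 are at 0 in mouse 4.

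Among the channels, Piezo1 (ENSMUSG00000014444, chr8:122481698-122551329 on the minus strand of GRCm38, 51 exons) ranged from no counts to 700. It had 161, 210, 700 and 0 counts in mice 1, 2, 3 and 4, which is 0.921, 1.90, 4.08 and 0 TPM. The median was 1.41 TPM and the mean 1.72 ± 1.75 (SD, n = 4), so the SD was as large as the mean. Mouse 3 stood highest. In mouse 4, with 0 counts, 3 counts would be 0.0292 TPM, where 3 counts are taken as the smallest detectable number. This covers the counting of reads only and sets no upper limit on the level in the 100 cells. A gene at 0 in 1 library was common at this level: among the 957 protein-coding genes with a median of 1 to 2 TPM, 40.8% had 0 counts in at least 1 mouse. Piezo1, Pkd1, Tead1 and Tead3 fall in that band, and Piezo1 and Tead3 had such a 0.

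The exons of Piezo1 overlap those of Ctu2, a tRNA thiolation gene on the opposite strand, over 2441 bases or 24.6% of its length. The counting used no strand, and reads that touch both genes are left out by the counter's default, so that part of Piezo1 could yield few or no counts. Ctu2 itself had 415, 275, 482 and 139 counts in mice 1 to 4. Divided by only the bases that Piezo1 shares with no other gene, its levels were 1.17, 2.41, 5.12 and 0 TPM, with the same order of mice. Red cell precursors also carry PIEZO1, and the 5 erythroid markers summed to 4885, 35.04, 1670 and 351 TPM in mice 1 to 4. Their part in the level of Piezo1 was not tested.

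Piezo2 (ENSMUSG00000041482, 54 exons), the PIEZO channel best known from touch-sensing neurons, stayed below 1 TPM in every mouse. Its counts were 94, 0, 38 and 1 in mice 1 to 4, or 0.311, 0, 0.128 and 0.00564 TPM. Mouse 1 stood highest, and in mouse 2, where it had no counts, 3 counts would be 0.0157 TPM.

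Trpv4 (ENSMUSG00000014158, chr5:114622152-114658421, minus strand, 16 exons) was the highest of the 5 channel genes in mice 1 and 4. It had 2770, 572, 759 and 380 counts, which is 38.6, 12.6, 10.8 and 9.02 TPM, with a mean of 17.8 ± 14.0 TPM (SD, n = 4). Mouse 1 lay apart from the others, which were within 9.02 to 12.6 TPM. TRPV4 is also known as a channel of chondrocytes. The 4 chondrocyte markers together summed to 352 TPM in mouse 1 and to 219 to 229 TPM in the others, nearly all of it Col11a2. Col9a1 was highest in mouse 3 (12.2 TPM), the cartilage gene Acan reached at most 2.64 TPM and Matn3 was at 0 in mice 2, 3 and 4. Mouse 1 also had the highest sum of 5 erythroid markers, 4885 TPM against 35.04 to 1670 TPM in the others. The part of either cell type in the level of Trpv4 was not tested.

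The polycystin partners differed in level and in how well they held between mice. Pkd2 (ENSMUSG00000034462, chr5:104459450-104505819, plus strand, 15 exons), the channel subunit, had 1735, 1664, 2283 and 466 counts, or 9.70, 14.7, 12.99 and 4.43 TPM. Its mean was 10.5 ± 4.52 TPM (SD, n = 4), and mouse 4 was lowest. Pkd1 (ENSMUSG00000032855, chr17:24549834-24596508, plus strand, 46 exons), the large receptor-like subunit, had 1066, 30, 916 and 125 counts, or 3.48, 0.155, 3.04 and 0.695 TPM. It thus split into a pair of mice above 3 TPM and a pair below 1 TPM, with a highest level 22.5 times the lowest. Pkd1 shares 3.98% of its exonic bases with Tsc2, a gene of growth control on the other strand. The TPM of Pkd2 was 2.79, 94.99, 4.27 and 6.38 times that of Pkd1 in mice 1 to 4. The value of mouse 2 rests on 30 counts of Pkd1. The size of the ratio also depends on the gene length used. With the longest annotated transcript of each gene it was 4.42 to 150.5.

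Trpv4 and Pkd2 together carried most of the transcripts of the 5 channel genes. Trpv4 made up 72.8%, 42.9%, 34.7% and 63.7% of their summed TPM in mice 1 to 4, and Pkd2 18.3%, 50.1%, 41.9% and 31.3%. Piezo1 and Pkd1 averaged 5.34% and 5.45% of the sum, and Piezo2 0.260%. The sum itself was 53.0, 29.4, 31.0 and 14.2 TPM, highest in mouse 1 and lowest in mouse 4.

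Of 24 other genes of mechanically gated channels and their regulators, 10 (41.7%) had a median above 1 TPM. In every mouse, 8 were above it. Over all protein-coding genes the shares were 44.2% and 30.1%, so this list lay near them. The median of the 24 medians was 0.458 TPM. The highest were Tmem120a (41.8 TPM), a membrane protein proposed to act as a channel, and the osmosensitive channels Tmem63b (11.9 TPM) and Tmem63a (10.3 TPM). Tmem63c and the hair cell channels Tmc1 and Tmc2 had 0 counts in every mouse, and the lowest of the genes with a median above 0 was Pkd1l3 (0.0178 TPM).

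TAZ was the more abundant coactivator transcript. Wwtr1 (ENSMUSG00000027803, chr3:57455649-57575910, minus strand, 7 exons) had 2432, 1369, 1771 and 597 counts, or 28.9, 25.8, 21.4 and 12.1 TPM in mice 1 to 4. Its mean was 22.1 ± 7.32 TPM (SD, n = 4), and mouse 4 was lowest. Yap1 (ENSMUSG00000053110, chr9:7931999-8004596, minus strand, 9 exons) had 1795, 493, 511 and 145 counts, or 11.0, 4.79, 3.19 and 1.52 TPM. Its mean was 5.13 ± 4.15 TPM, mouse 1 was highest and mouse 4 lowest, and the highest was 7.27 times the lowest. With merged exons as length, the lowest Wwtr1 value exceeded the highest Yap1 value. With the longest annotated transcript of each gene the ranges overlapped, at 9.62 to 22.8 TPM for Wwtr1 and 2.08 to 14.9 TPM for Yap1, and Yap1 was still the lower in 4 of 4 mice.

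Wwtr1 accounted for 72.4%, 84.3%, 87.0% and 88.9% of the summed YAP and TAZ transcripts (83.2% ± 7.40, SD, n = 4). The sum was 39.9, 30.5, 24.6 and 13.6 TPM. As a ratio, the TPM of Wwtr1 was 2.62 to 7.98 times that of Yap1 within a mouse. The size of this ratio rests on the gene length used: the merged exons of Yap1 span 9257 bases and its longest coding transcript 4171. With the longest protein-coding transcript of each gene, an alternative chosen after seeing the data, the ratio was 1.203 to 3.66, still above 1 in 4 of 4 mice.

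Among 22 Hippo kinases and regulators upstream of YAP and TAZ, 20 had a median above 1 TPM, against 44.2% of protein-coding genes. In every mouse, 14 were above it, against 30.1%. The median of the 22 medians was 6.78 TPM. The highest were Amotl1 (26.9 TPM), a junction protein that binds YAP, Stk3 (26.7 TPM), which encodes the kinase MST2, and Frmd6 (25.02 TPM), a membrane-linked activator of the cascade. The 2 below the cutoff were Amot, another junction protein, at a median of 0.339 TPM, and Wwc1, the scaffold KIBRA, which had counts only in mouse 2.

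All 3 TEAD genes among the 10 passed the cutoff, at levels lower than Wwtr1 in every mouse. Tead2 (ENSMUSG00000030796, chr7:45215753-45233644, plus strand, 11 exons) had 300, 211, 392 and 306 counts, or 3.56, 3.96, 4.74 and 6.18 TPM in mice 1 to 4. With a mean of 4.61 ± 1.16 TPM (SD, n = 4), it was the steadiest of the 10 genes, and the only one of them highest in mouse 4. Tead1 (ENSMUSG00000055320, chr7:112679318-112906807, plus strand, 14 exons) had 225, 208, 971 and 109 counts, or 0.942, 1.38, 4.14 and 0.777 TPM. Mouse 3 stood high and the other mice lay near the cutoff. Tead3 (ENSMUSG00000002249, chr17:28331671-28350817, minus strand, 13 exons) had 184, 141, 126 and 0 counts, or 1.56, 1.89, 1.09 and 0 TPM. In mouse 4, 3 counts of Tead3 would be 0.0432 TPM.

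Tead4, the remaining family member, had 0 counts in all 4 libraries, where 3 counts would be at most 0.0807 TPM. Tead2 made up 58.8%, 54.8%, 47.5% and 88.8% of the summed TEAD transcripts, more than any other TEAD gene in each mouse. Tead1 made up 15.5%, 19.1%, 41.6% and 11.2%, and Tead3 25.7%, 26.1%, 10.9% and 0%, so that Tead3 came before Tead1 in mice 1 and 2 and after it in mice 3 and 4. The summed TEAD level, 6.06, 7.23, 9.96 and 6.96 TPM, ranged less widely than that of YAP and TAZ, and mouse 4 was not its lowest.

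Vestigial-like proteins bind TEAD factors in place of YAP and TAZ. Vgll4, which encodes a repressor of this kind, had 8.22, 2.58, 16.7 and 6.73 TPM, above the cutoff in every mouse. Vgll3 had 54, 0, 12 and 766 counts, or 0.432, 0, 0.0978 and 10.4 TPM, so that almost all of its counts came from mouse 4. Vgll1 and Vgll2 had 0 counts in every mouse.

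**Figure D2:**
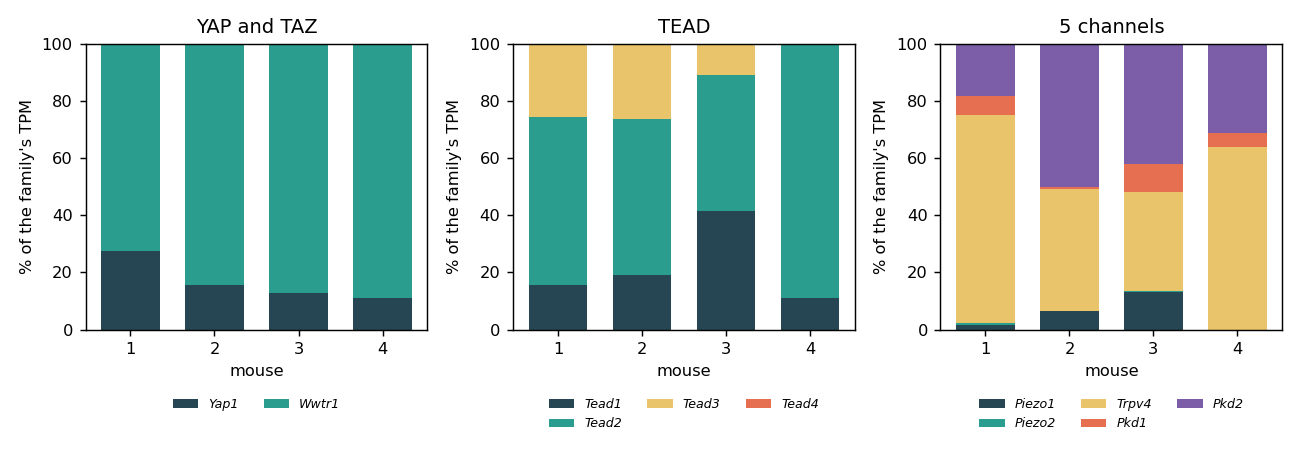
Share of the summed TPM of each family (vertical axis, %) held by each gene in mice 1 to 4 (horizontal axis), for YAP and TAZ, for the TEAD factors and for the 5 channel genes. Wwtr1 holds 72.4% to 88.9% of the first sum, Tead2 47.5% to 88.8% of the second with Tead4 at 0, and Trpv4 with Pkd2 most of the third.

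The levels of related genes were compared within each mouse, as the difference in log2(TPM + 1), in 7 pairs. The signs of the 4 differences were flipped in all ways, and this exact permutation test, two-sided, cannot give a p below 0.125, so no pair could pass 0.05, and the size and the number of mice carry the comparison. The difference that was largest against its spread was that of Yap1 and Wwtr1: at −2.08 ± 0.52 (SD), Yap1 was the lower in 4 of 4 mice (p = 0.125 by the exact permutation test, 0.175 after adjustment over the 7 pairs). With the same exact p and adjusted p, Piezo1 was below Trpv4 (−2.78 ± 1.36), Pkd1 below Pkd2 (−2.12 ± 1.12), Tead1 below Tead2 (−1.12 ± 0.76) and Tead2 above Tead3 (1.48 ± 0.96), each in 4 of 4 mice. Without a length correction, Tead1 minus Tead2 was −0.12 ± 1.05, with Tead1 the higher in mouse 3. Piezo1 minus Piezo2 was 1.06 ± 0.98 and above 0 in 3 of 4 mice, with p = 0.25 from the exact permutation test and 0.292 once adjusted. In mouse 4, where Piezo1 had no counts and Piezo2 had 1, that difference was −0.01. Without mouse 3, which had the highest Piezo1, it was 0.69 ± 0.78, within its spread. Tead1 and Tead3 differed by less than the spread between mice (0.36 ± 0.83, higher in 2 of 4, exact permutation p = 0.5, adjusted 0.5).

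**Figure D3:**
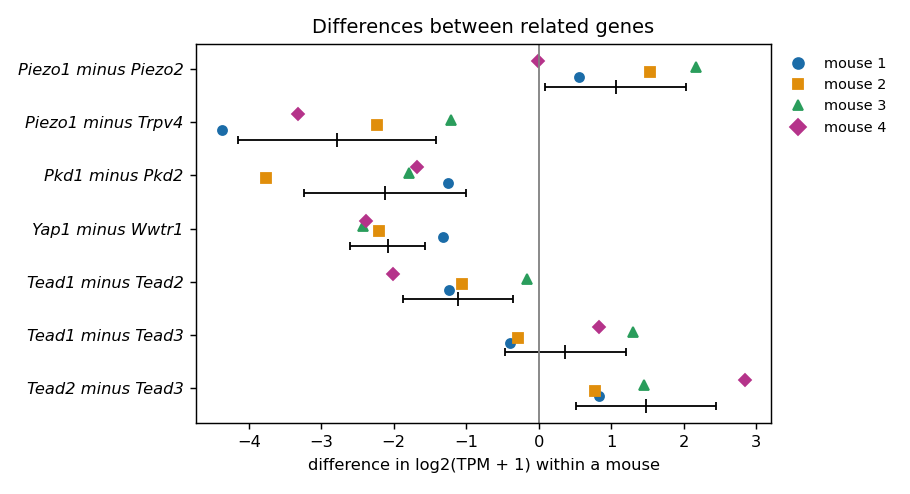
Differences in log2(TPM + 1) within a mouse (horizontal axis) for 7 pairs of genes, with a symbol for each mouse and the mean with its SD in black below them. All 4 mice lie on the same side of 0 in 5 pairs, and mice fall on both sides for Tead1 minus Tead3 and for Piezo1 minus Piezo2.

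Transcripts that YAP and TEAD are known to drive in other cells were then read in the same libraries. Of 22 such target genes, 16 had a median above 1 TPM and 10 exceeded it in every mouse. Over all protein-coding genes these shares were 44.2% and 30.1%. The median of the 22 target medians was 4.64 TPM. The highest was Ccn1, a secreted matrix protein and a standard readout of YAP activity, at 1381, 802, 2650 and 798 TPM in mice 1 to 4. Ccdc80, another matrix protein, had 137, 91.1, 152 and 91.7 TPM. Ccn2, the growth factor CTGF and the best known target, had 114, 75.3, 270 and 77.2 TPM. In these 3 genes mouse 3 was highest and mouse 1 next, with mice 2 and 4 close together below them. For Ccn2, 23.2% of the exonic bases are shared with the antisense gene Gm15270, which had 244, 0, 151 and 91 counts.

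Ankrd1, a cofactor of the muscle nucleus that is also among the most used YAP readouts, had 0 counts in all 4 libraries, where 3 counts would be at most 0.101 TPM. The other targets below the cutoff were Nt5e (median 0.392 TPM), Dock5 (0.0557 TPM) and Tgfb2 (0.00776 TPM), with Fjx1 and Nuak2 each having counts in 1 mouse only. Several of those above it held in only part of the mice. F3, the tissue factor gene, had 0, 5.66, 15.1 and 15.7 TPM, and the receptor tyrosine kinase gene Axl had 12.4, 2.55, 8.52 and 0.115 TPM. Igfbp3, a binding protein for insulin-like growth factors, had 13.1, 238, 42.4 and 34.04 TPM, highest in mouse 2. The 6 niche markers also had their highest sum in mouse 2 (4644 TPM against 1067 to 2387 TPM), most of it Cxcl12 (4329 TPM). Lepr, Kitl, Foxc1 and Ebf3 were highest in mouse 2 too, and Prrx1 was lowest there (10.6 TPM). The part of niche-cell RNA in the level of Igfbp3 was not tested. Amotl2, Lats2 and Ptpn14 stand on both the Hippo list and the target list, since they restrain YAP and are induced by it, and had medians of 10.8, 7.27 and 7.06 TPM. Of the exonic bases of Lats2, 42.4% are shared with Gm49361 on the same strand, so its level is uncertain.

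**Figure D4:**
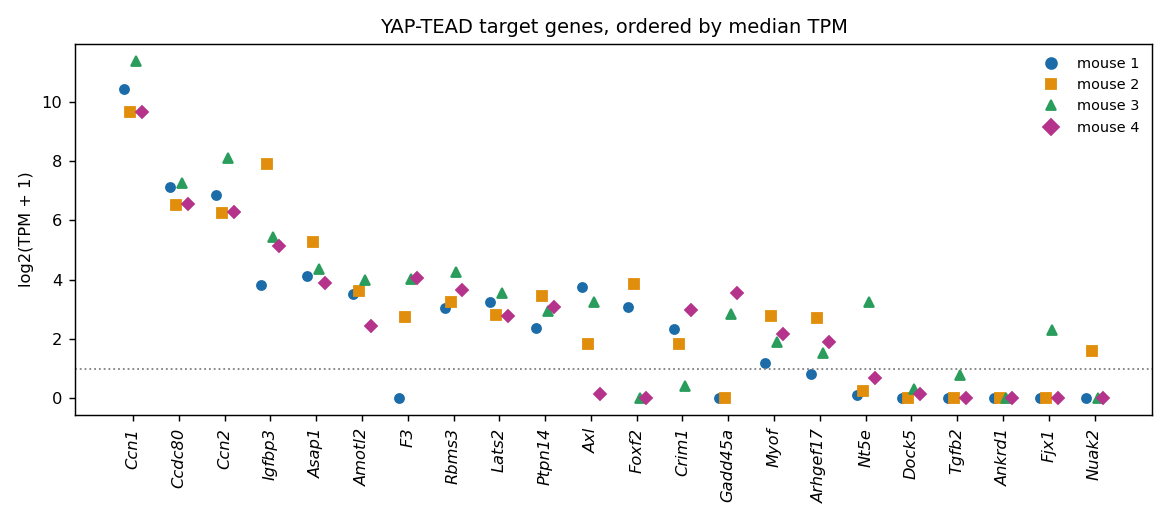
Levels of 22 YAP-TEAD target genes in log2(TPM + 1) (vertical axis), ordered by median TPM, with a symbol for each mouse and a dotted line at 1 TPM. Ccn1, Ccdc80 and Ccn2 are high in every mouse with mouse 3 on top, and Ankrd1 is at 0 in all 4.

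Ccn1 and Ccn2 also respond to serum and to handling of tissue, as the immediate-early genes do. A list of 7 immediate-early genes, chosen after seeing the data, was expressed in every mouse, and all 7 were highest in mouse 3, as Ccn1 and Ccn2 were. Mouse 3 was the highest for 31.3% of the 9684 protein-coding genes past the cutoff, the largest share of any mouse. Fos had 1104, 1897, 2216 and 1258 TPM, Jun 105, 167, 271 and 56.8 TPM, and Egr1 178, 380, 434 and 174 TPM in mice 1 to 4. The summed level of the 7 was 2075, 3505, 4995 and 2059 TPM. Mouse 2 was above mouse 1 for each of these 3 genes and below it for Ccn1 and Ccn2. The osteocyte marker Dmp1 ran 1262, 588, 2105 and 435 TPM, with mouse 3 highest and mouse 1 next, and Mepe was also highest in mouse 3. Phex, by contrast, had 56.2, 41.4, 21.3 and 49.7 TPM, lowest in mouse 3, and Sost, the defining gene of mature osteocytes, had 0 counts in all 4. The 4 osteocyte markers summed to 1337, 648, 2246 and 491 TPM. The part of the immediate-early response or of osteocyte RNA in the Ccn1 and Ccn2 levels was not tested.

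TEAD factors bind the hexamer GGAATG, which reads CATTCC on the other strand. To show where the letters lie in genes that the results turn on, RefSeq promoter windows of GRCm38.p6, from 250 bases before to 50 after a transcript start, were searched on both strands. A window was found for 8 of the 10 genes, not for Piezo2 and Tead1, and 4 of the 8 held a match: Pkd2, Yap1, Wwtr1 and Tead3. Over 27025 genes with a window the share was 16.6%, and among 15 of the 22 target genes it was 46.7%, or 7 genes. Stretches of 30 bases around 1 match in each of the 4 genes are printed 5′ to 3′ in the direction of transcription. Only that match is in capitals, with its position counted from a transcript start. Wwtr1 has a further start, from which the same match lies at position −136. The Tead3 stretch also holds a CATTCC from position −114, left in small letters.
Yap1 (chr9:8004720-8004749, minus strand, match from position −141): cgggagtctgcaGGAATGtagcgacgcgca
Wwtr1 (chr3:57576029-57576058, minus strand, match from position −170): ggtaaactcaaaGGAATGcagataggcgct
Tead3 (chr17:28350706-28350735, minus strand, match from position −123): tccggccgggctCATTCCgtacattccggc
Pkd2 (chr5:104459402-104459431, plus strand, match from position −43): agctaccccgtaGGAATGtgggcaccgatg
The highest target, Ccn1, and Ankrd1, the target at 0 counts, both held the letters, with 1 and 2 matches over the 250 bases before their start, which are shown whole for comparison.
Ccn1 (chr3:145649986-145650235, minus strand): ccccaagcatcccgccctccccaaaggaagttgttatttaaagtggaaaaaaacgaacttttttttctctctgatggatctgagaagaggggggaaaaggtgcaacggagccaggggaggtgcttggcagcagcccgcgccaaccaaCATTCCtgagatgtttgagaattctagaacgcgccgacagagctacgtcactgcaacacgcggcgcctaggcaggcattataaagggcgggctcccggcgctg
Ankrd1 (chr19:36119845-36120094, minus strand): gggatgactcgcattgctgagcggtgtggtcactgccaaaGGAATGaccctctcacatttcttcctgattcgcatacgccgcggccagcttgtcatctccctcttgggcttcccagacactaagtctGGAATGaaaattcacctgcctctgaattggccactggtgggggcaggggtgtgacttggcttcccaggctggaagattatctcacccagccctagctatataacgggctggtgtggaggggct
The hexamer was thus present before the start of a gene at 1091 TPM and of a gene with no counts. A match is a description of the letters and not of binding, which these libraries do not measure.

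Genes of the actin skeleton and of the cilium were read as a setting for the 10. Of 15 genes of actin, its regulators and the nuclear envelope, 13 had a median above 1 TPM, against 44.2% of protein-coding genes. In every mouse, 10 exceeded it, against 30.1%. The highest were Rhoa (84.2 TPM), the GTPase that drives actin tension, Lmna (38.9 TPM), the nuclear lamin A/C, and Tln1 (27.5 TPM), which links integrins to actin, and the lowest was Syne1 (0.509 TPM). Of 12 genes of the primary cilium, where the polycystins reside, 7 (58.3%) were above the cutoff, against the same 44.2%. In every mouse, 4 were above it, against the same 30.1%. Ift20, a transport subunit of the cilium that also acts at the Golgi, had a median of 468 TPM. The ciliary motor Kif3a followed at 7.58 TPM and Arl13b at 6.93 TPM. The lowest by median was Ift140 at 0.346 TPM, with 14.9, 0.0108, 0.542 and 0.151 TPM in mice 1 to 4, so most of its counts came from mouse 1.

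Mouse 4 gave the lowest level for 7 of the 10 genes and mouse 1 the highest for 5. Among the 9684 protein-coding genes past the cutoff, mouse 4 was lowest for 31.9% and mouse 1 highest for 26.8%. Mouse 4 was also the library with the fewest counts. Its level of Bglap, the osteoblast gene for osteocalcin, was the highest (156730 TPM, against 55668 to 119827 TPM), while Ibsp and Sp7 were lowest in mouse 4 and Alpl was lowest in mouse 2. With the 10 highest genes left out of the total, mouse 4 was still lowest for 6 of the 10. The part of depth or of osteoblast RNA in the low levels of the 10 genes in mouse 4 was not tested. Endothelial cells and macrophages express Piezo1 in other tissues. Of their defining markers, Cdh5, Kdr, Adgre1, Csf1r and C1qa had 0 counts in all 4 libraries. Pecam1 had 13, 11, 5 and 14 counts, and Tek had 0, 58, 0 and 42. The 5 endothelial markers summed to 0.0465 to 1.28 TPM and the 4 macrophage markers to 0 to 6.63 TPM, the latter from Cd68 alone. Their part in the level of Piezo1 was not tested. Of 4 smooth muscle and pericyte markers, Acta2 had 0 counts and Rgs5 0, 29.1, 0 and 2.94 TPM. Cspg4 had 2.96, 0.558, 2.08 and 7.49 TPM in mice 1 to 4, and Myh11 had counts only in mouse 4, at 1.17 TPM.

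The spread between mice was far above the counting error of independent reads for the 10 genes. The coefficient of variation (SD over mean) was 101% for Piezo1 and 87.0% for Tead1, where counting alone would give 7.20% and 5.26%. That error takes reads as independent, which PCR copies are not. The error from sampling molecules of 100 cells was not measured, so the spread cannot be read as differences between animals alone. Protein-coding genes of 1 to 5 TPM had a median coefficient of 98.8%, so Piezo1, Pkd1 (90.2%) and Tead1 were near the middle for their level. Tead3 (72.7%) was below it, and Tead2, at 25.1%, lay farthest below. In the band of 5 to 20 TPM, with a median of 60.0%, Trpv4 (78.8%) was above the middle and Pkd2 (43.2%) below it. Yap1 (80.9%), with a mean of 5.13 TPM, lay at the lower edge of this band. Its value was above the median of this band and below the 98.8% of the band of 1 to 5 TPM. Wwtr1, at 33.2%, lay close to the 39.3% of genes from 20 to 100 TPM.

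**Figure D5:**
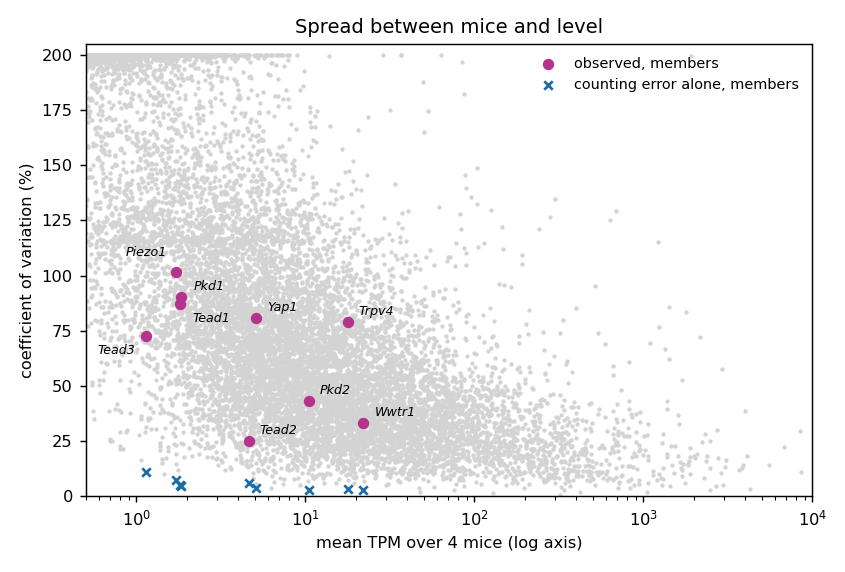
Coefficient of variation over the 4 mice (vertical axis, %) against mean TPM (horizontal log axis) for protein-coding genes (grey). Filled circles are 9 of the 10 genes, and crosses the value that counting error of independent reads alone would give them. Piezo2 lies below the range drawn. The crosses are at or below 11.1% and the circles run from 25.1% for Tead2 to 101% for Piezo1.

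For 3 of the genes, the protein-coding genes with the nearest levels over the 4 libraries were looked up, by the root mean square difference in log2(TPM + 1). Nearest to Piezo1 were Plekhm2 (0.11), with 1.01, 2.24, 4.598 and 0 TPM, and Tdrd7 (0.14). Nearest to Yap1 were Rngtt (0.26) and Gsk3b (0.26), the latter with 9.48, 4.76, 2.90 and 2.48 TPM. Nearest to Tead1 were Tubgcp5 (0.16) and Cage1 (0.17). With 4 libraries such a match describes these values only.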

How the data were processed

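RNA-seq counts of 4 MSC libraries were used. The authors made them by demultiplexing with bcl2fastq 2.20.0, aligning read pairs to GRCm39 with STAR 2.7.10 and counting pairs on exons with featureCounts (Subread 1.6.5) without a strand option, and deposited raw counts per gene and mouse. TPM was computed here from these counts in Python 3.11.15 (numpy 2.4.6, pandas 2.3.3), with merged exon lengths of GENCODE M21 on GRCm38, since an annotation of GRCm39 was not used here. A gene whose exons changed between them has a TPM off by the ratio of lengths. Of 56980 genes, 4855 have no length and were left out, and the rest hold 96.1% to 98.2% of the counts. Coordinates are those of GRCm38 and none were converted. A floor of 3 counts stands for the smallest detectable level and covers counting error only, as PCR copies are not independent molecules.

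Pairs of genes were compared by the difference in log2(TPM + 1) within a mouse. They were tested by flipping signs over mice (an exact permutation test, two-sided) with Benjamini-Hochberg adjustment over 7 pairs. The alternatives were other lengths, denominators and scalings (TMM from edgeR 4.0.16, median-of-ratios), a pseudocount of 0.1, a cutoff of 5 TPM, a minimum of 10 counts, the mean over mice, and leaving out each mouse. The lengths from unshared exonic bases and from the longest protein-coding transcript, and the immediate-early list, were chosen after seeing the data. The 10 genes, the lists and the pairs were chosen with earlier results of these data known. Each of the 10 genes is named with its value in every mouse. From other lists the 3 highest by median, the lowest above 0 and those at 0 counts throughout are named, any target or TEAD partner may be named, and a gene named outside this rule, such as a second gene below the cutoff or a marker, was chosen after its values were seen. Some genes of the lists are not reported here. The code was tested on simulated counts.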

Additional observations from a re-analysis of the deposited data

Results flagged for a closer look

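In 3 sets of values 1 mouse lay far from the other 3, by a gap between that mouse and its nearest neighbour that exceeded Dixon's 95% critical value when divided by the whole range. For Trpv4 the gap was 0.879 of the range, with mouse 1 high at 38.6 TPM and the others at 9.02 to 12.6 TPM. For the summed chondrocyte markers it was 0.926, again with mouse 1 high, at 352 TPM against 219 to 229 TPM, and most of this sum was Col11a2. For the summed macrophage markers it was 0.925, with mouse 3 at 6.63 TPM from Cd68 alone. Of 34 values compared in this way 3 passed, where chance, at about 1 in 20, gives 1.7.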

How the results depend on the processing

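Of 91 differences between paired genes recomputed under an alternative, 90 kept their direction. Tead1 minus Tead3 turned to −0.046 with the longest protein-coding transcript as length, which was chosen after seeing the data, and lay within its spread under both lengths. Yap1 minus Wwtr1 ran from −2.35 with a pseudocount of 0.1 to −1.11 with that transcript length, and Tead1 minus Tead2 shrank to −0.12 ± 1.05 without a length correction, lower in 3 of 4 mice. The number of genes with a median above 1 TPM, 9 of 10, fell to 3 at a cutoff of 5 TPM (Trpv4, Pkd2 and Wwtr1) and to 7 when 10 counts were required of each mouse, and ranged from 6 to 9 when 1 mouse was left out. Without mouse 3 it was 6, losing Piezo1, Pkd1 and Tead1, without mouse 2 it was 7, and without mouse 1 it was 8. The number above the cutoff in every mouse, 5, fell to 2 at 5 TPM. Median-of-ratios scaling moved the median of all genes past the cutoff by −0.16 in mouse 3 and 0.12 in mouse 4 (log2), and TMM by less than 0.1 in each. All libraries form 1 group, so no replicate block between groups could be fitted. In mouse 4, 3 counts correspond to 0.0292 TPM for Piezo1 and 0.0432 TPM for Tead3.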

Other observations

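Several Hippo and channel genes that were well covered in most mice fell near 0 in a single one, and were picked out after their values were seen. Stk3 had 33.97, 0.662, 29.6 and 23.8 TPM in mice 1 to 4, while Stk4, its paralog, had 1.57, 5.84, 3.30 and 19.2 TPM. Nf2, the upstream tumour suppressor merlin, had 11.0, 2.33, 7.50 and 0.0284 TPM. Ajuba, a LIM protein that binds LATS kinases, had 7.72, 14.6, 5.30 and 0.0531 TPM, with mouse 4 lowest for both. Trpm4, a calcium-activated cation channel, had 8.27, 0.00830, 6.56 and 2.26 TPM, and mouse 2 was lowest there as it was for Stk3. Srf, the partner of the actin-regulated MRTF coactivators, had 30.2, 0, 4.04 and 7.86 TPM. Kcnk2, the stretch-gated potassium channel TREK1, was above 1 TPM in every mouse, at 4.66, 3.02, 11.2 and 5.36 TPM.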
